A study of Mus musculus with 6 samples.

Results

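The 5 genes described here encode subunits of the phagocyte NADPH oxidase, the enzyme with which neutrophils and macrophages make superoxide. They were chosen by name (Cybb, Cyba, Ncf1, Ncf4 and Rac2). All 5 were found among the 55487 genes of the deposited table, and all 5 were among the 18766 genes tested, which had a mean value of 3 or more. The study sequenced total RNA from Kit-positive mouse bone marrow cells infected with a lentivirus that expressed MLLT3, as the wild type protein (WT, 3 libraries) or with the substitutions K63E and K67E (DM, 3 libraries). Both groups were sorted and then grown for 8 days in methylcellulose with 200 nM 4-hydroxytamoxifen, which per the labels deletes the endogenous Mllt3 gene. The medium of both groups held mouse Flt3L at 10 ng/mL, further cytokines at 20 ng/mL each, among them human EPO and mouse SCF, GM-CSF, IL-3, IL-6 and IL-11, and gentamycin at 50 µg/mL. WT cells therefore carry an added wild type transgene after tamoxifen and are not unmanipulated marrow. The labels used here name neither the Cre line nor the age of the mice, and they do not say whether replicates came from separate animals, so p-values measure only the spread between these libraries.

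The core of this oxidase is flavocytochrome b, a membrane heterodimer of the catalytic subunit NOX2 (encoded by Cybb) and its partner p22phox (Cyba). In a resting phagocyte the cytosolic subunits, among them p47phox (Ncf1) and p40phox (Ncf4), sit apart from it. On stimulation p47phox is phosphorylated and carries the others to the membrane, where the GTPase Rac2 joins them, and electrons then pass from NADPH to oxygen. Loss of several of these subunits causes chronic granulomatous disease. The genes are switched on as granulocytes and monocytes mature from marrow progenitors.

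The deposited values were regularized logs (rlog), which are on a log2 scale and normalized for library size, so that a difference of 1 is a doubling. The depth of the libraries is unknown. Mllt3, deleted in the genome and supplied by the vector, ran from 12.44 to 12.87 in WT and from 11.99 to 12.44 in DM (change -0.48, limma adjusted p 0.0448), and these values do not separate transgene from endogenous transcripts. Kit, the marker used to select the cells, ran from 14.29 to 14.58 and from 14.30 to 14.90 and was not called. At a Benjamini-Hochberg adjusted p under 0.05, limma called 13.9% of all tested genes, 9.2% as higher and 4.71% as lower in DM. The split of calls depended on scaling: 66.1% of called genes were higher with the values as deposited and 51.3% after quantile normalization. The 1585 genes whose mean was 12 or more, the range of the oxidase genes, had a median change of 0.13 as deposited, 0.10 with each library centred on its median and -0.0055 after quantile normalization.

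The oxidase genes did not move as 1 unit. Cyba rose and Ncf1 fell in DM, Cybb was higher in every DM library than in every WT library without passing the threshold, and Ncf4 and Rac2 were not called in either direction. That is 1 of 5 members called higher, against 9.2% of all tested genes, and 1 called lower, against 4.71%. The WT and DM values did not overlap for 3 of 5 members, against 35.8% of tested genes. The median change was -0.024 over the 5 members, 0.0053 over all tested genes and 0.13 over those with a mean of 12 or more. After quantile normalization it was -0.15 over the members and -0.0055 over the genes with a mean of 12 or more.

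**Figure D1:**
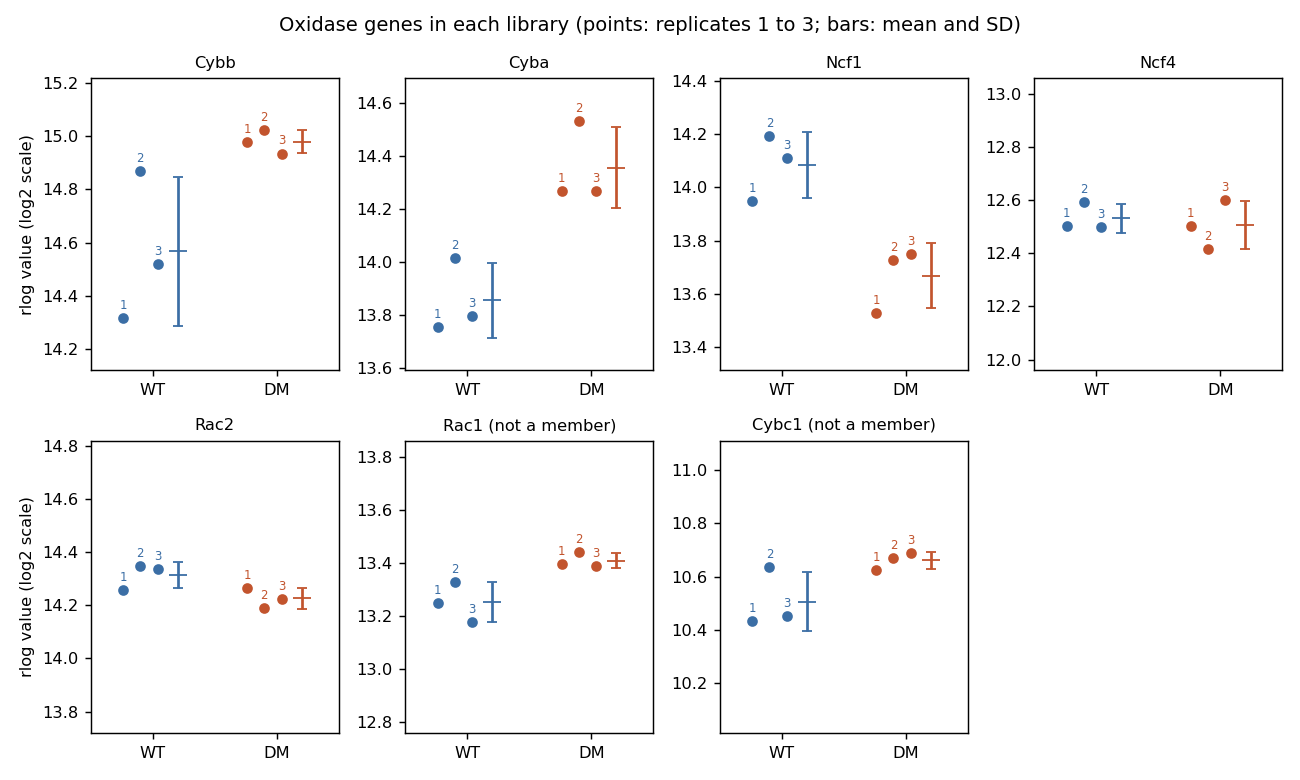
The rlog value (log2 scale, vertical axis) of each of the 5 members and of Rac1 and Cybc1 is plotted for WT and DM, with points numbered by replicate and a bar for the mean and SD (n = 3); all panels have the same span. Cybb and Cyba lie higher and Ncf1 lower in DM without overlap, while the groups overlap for Ncf4 and Rac2.

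Positions are given from GENCODE M21 on GRCm38, the build that mm10 in the submitters' processing notes stands for. Cybb (ENSMUSG00000015340.10) is on chromosome X from 9435252 to 9487771, minus strand, with 13 exons in its longest transcript. Cyba (ENSMUSG00000006519.11) is on chromosome 8 from 122424776 to 122432930, minus strand, with 6 exons. Ncf1 (ENSMUSG00000015950.13) is on chromosome 5 from 134220053 to 134229625, minus strand, with 10 exons. Ncf4 (ENSMUSG00000071715.12, chromosome 15, 78244801 to 78262580, plus strand, 10 exons) and Rac2 (ENSMUSG00000033220.7, chromosome 15, 78559167 to 78572783, minus strand, 7 exons) share a chromosome. A stretch of 297 kb with 10 protein-coding genes lies between them. Ncf4 and Rac2 are also the 2 members with the smallest changes.

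Upstream sequences are shown for Cybb, Cyba and Ncf1, the members for which a promoter entry was found. They are also the 3 members whose groups did not overlap. RefSeq (GRCm38.p6) promoter entries were matched by symbol for these 3 of the 5 members, and none was matched for Ncf4 and Rac2. Each line holds the 250 bases before the RefSeq start, 5′ to 3′ on the minus strand, with CpG dinucleotides in capitals.
Cybb, chrX:9469325-9469574: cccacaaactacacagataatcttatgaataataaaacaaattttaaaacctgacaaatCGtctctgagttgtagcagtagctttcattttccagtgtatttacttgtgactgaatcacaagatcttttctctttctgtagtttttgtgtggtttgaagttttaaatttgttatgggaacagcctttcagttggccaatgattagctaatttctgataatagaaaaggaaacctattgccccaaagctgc
Cyba, chr8:122432941-122433190: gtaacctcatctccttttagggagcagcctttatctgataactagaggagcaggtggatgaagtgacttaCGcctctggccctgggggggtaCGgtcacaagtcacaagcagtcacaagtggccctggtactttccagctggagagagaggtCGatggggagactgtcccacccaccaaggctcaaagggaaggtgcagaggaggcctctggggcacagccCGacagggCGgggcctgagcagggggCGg
Ncf1, chr5:134229626-134229875: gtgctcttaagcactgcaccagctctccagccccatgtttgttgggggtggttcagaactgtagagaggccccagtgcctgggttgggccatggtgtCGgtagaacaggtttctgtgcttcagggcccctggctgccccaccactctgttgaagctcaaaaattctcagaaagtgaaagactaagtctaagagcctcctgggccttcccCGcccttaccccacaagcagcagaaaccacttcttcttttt
The Cybb sequence was AT-rich, with 34% G and C and 1 CpG, and lies inside the longer GENCODE model of the gene. That of Cyba had 60% G and C and 6 CpG, and that of Ncf1 54.4% and 2 CpG, where the median of all 32851 promoter entries was 52.4% and 6 CpG.

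Motifs of myeloid factors were searched on both strands of the 300-base entries, which add the 50 bases after the start. The letters searched were GAGGAA, a core of ETS factors such as PU.1, a composite of an ETS and an IRF site (GGAA, then 2 bases of any kind, then GAAA), TTGCNNAA, a core of C/EBP factors, and TATAAA. Cybb held 1 match each of the ETS core and of the composite, both on the opposite strand and overlapping each other, together covering positions 4 to 15 after the start. They stand in capitals in the 30 bases around them.
Cybb, chrX:9469301-9469330, minus strand: agctgctgtTTTCATTTCCTCatcagaaga
The ETS core occurs in 28.3% of all entries and the composite in 2.72%. Cyba and Ncf1 held none of the 4 motifs. The C/EBP core occurs in 10.8% of entries and TATAAA in 13.6%. A match describes these letters only.

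Cybb, the catalytic subunit, had the highest rlog value of the 5. Its WT libraries read 14.31, 14.87 and 14.52, in the order of replicates 1, 2 and 3 used throughout, and its DM libraries 14.98, 15.02 and 14.94. The DM libraries lay close together, while the WT libraries were spread, with WT replicate 2 just under the DM values. The WT mean of 14.57 ± 0.282 (SD, n = 3) compared with a DM mean of 14.98 ± 0.0439 (SD, n = 3). The difference of 0.41 (1.33-fold, SE 0.129, 95% interval 0.12 to 0.70) had a limma adjusted p of 0.0631 and is not a call. Without WT replicate 2 the difference was 0.56 with an adjusted p of 0.00464, which passes the threshold, and without WT replicate 1 it was 0.29 with an adjusted p of 0.207. With tests restricted to genes of a mean of at least 5, or to protein-coding genes, the adjusted p was 0.0423 and 0.0482. After quantile normalization the difference was 0.26 (adjusted p 0.127).

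Cyba encodes p22phox, which stabilizes NOX2 and docks p47phox. The 3 WT libraries stood at 13.75, 14.02 and 13.80 on the rlog scale and the 3 DM libraries at 14.27, 14.53 and 14.27. All 3 DM libraries were above all 3 WT libraries, and replicate 2 was the highest in both groups. From 13.86 ± 0.141 (SD, n = 3) to 14.36 ± 0.151 (SD, n = 3), the mean rose by 0.50 (1.41-fold, SE 0.104, 95% interval 0.27 to 0.73, limma adjusted p 0.0132). After quantile normalization the rise was 0.37 (adjusted p 0.0127). The call ended if WT replicate 1 (0.45, adjusted p 0.0619) or DM replicate 2 (0.41, adjusted p 0.0566) was left out. GENCODE places Gm20388 on the strand opposite Cyba, and whether the counting used strand is not given in the sources used here.

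Ncf1 encodes p47phox, the organizer that carries the cytosolic subunits to the membrane. In WT its rlog values were 13.95, 14.20 and 14.11, against 13.53, 13.72 and 13.75 in DM. Every DM library was below every WT library, the opposite order to Cyba and Cybb. From 14.09 ± 0.125 (SD, n = 3) to 13.67 ± 0.122 (SD, n = 3), the mean fell by 0.42 on the log2 scale (0.748-fold, SE 0.0949, 95% interval of the change -0.63 to -0.21, limma adjusted p 0.0183). After quantile normalization the change was -0.59 (adjusted p 0.00279). Leaving out DM replicate 1 (-0.35, adjusted p 0.0656) or DM replicate 2 (-0.45, adjusted p 0.0519) ended this call. Gtf2ird2 overlaps Ncf1 on the opposite strand, with a mean of 8.27 in WT, 8.17 in DM and a change of -0.10 (adjusted p 0.347).

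Ncf4 encodes p40phox, the subunit that binds the lipid phosphatidylinositol 3-phosphate on phagosomes. Its rlog values, 12.50, 12.59 and 12.50 in the WT libraries, were 12.50, 12.42 and 12.60 in those of DM, and the groups overlapped. The means were 12.53 ± 0.0529 (SD, n = 3) and 12.51 ± 0.0919 (SD, n = 3). Their difference of -0.024 (SE 0.0745, limma adjusted p 0.853) had a 95% interval from -0.19 to 0.14. Its sign was not stable, at 0.0064 if WT replicate 2 was left out and 0.021 if DM replicate 2 was. After quantile normalization it was -0.15 (adjusted p 0.161), and the groups then did not overlap.

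Rac2 encodes the Rac GTPase of blood cells. It read 14.26, 14.35 and 14.34 in WT libraries and 14.27, 14.19 and 14.22 in DM libraries, so that WT replicate 1 fell inside the range of DM. The means were 14.32 ± 0.0496 (SD, n = 3) and 14.23 ± 0.0383 (SD, n = 3). The difference of -0.089 (SE 0.0758, 95% interval -0.26 to 0.08) was not past the threshold (limma adjusted p 0.457). After quantile normalization it was -0.23 (adjusted p 0.0545) and after centring -0.12 (adjusted p 0.242), and in both cases the groups did not overlap.

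**Figure D2:**
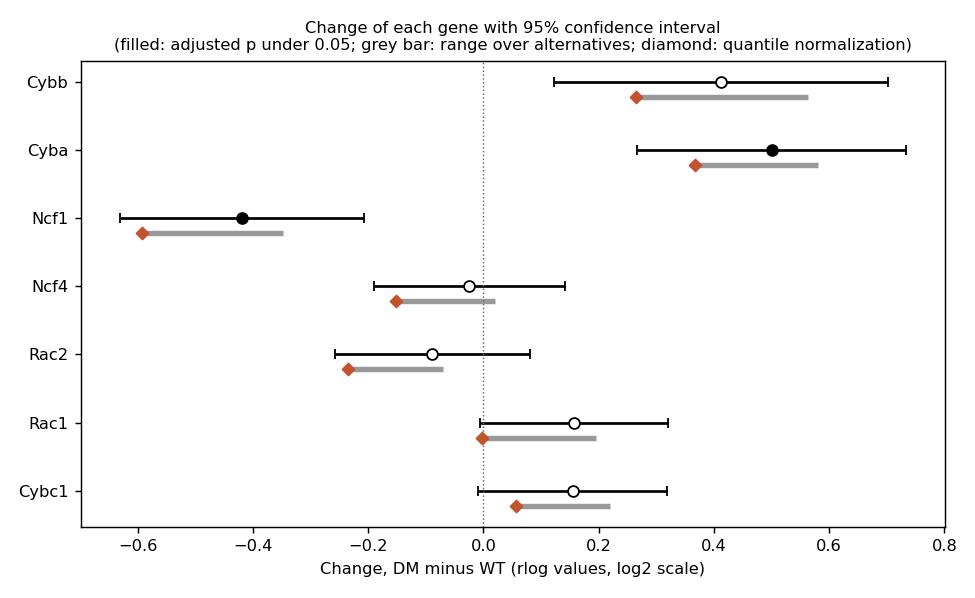
Circles show the change of each gene, DM minus WT, in rlog values on the log2 scale with its 95% confidence interval from limma, filled where the adjusted p was under 0.05; grey bars show the range over the alternatives and diamonds quantile normalization. The intervals of Cyba and Cybb lie above 0 and that of Ncf1 below it, and quantile normalization gives the lowest value of each of the 7 genes.

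Rac1 and Cybc1, which also serve the complex, were not called. Rac1, the widely expressed relative of Rac2, stood at 13.25, 13.33 and 13.18 in WT against 13.40, 13.44 and 13.39 in DM. The Rac1 groups did not overlap, but the change of 0.16 (SE 0.0731, limma adjusted p 0.186) was not a call. Cybc1, the chaperone that lets NOX2 and p22phox mature, read 10.43, 10.63 and 10.45 in WT and 10.62, 10.67 and 10.69 in DM, with a change of 0.16 (SE 0.0736, adjusted p 0.195). If WT replicate 2 was left out, Cybc1 passed the threshold (0.22, adjusted p 0.0492). After quantile normalization the sign of Rac1 turned, at -0.0021. Within WT, replicate 2 had the highest value for all 7 genes, the members with Rac1 and Cybc1, and replicate 1 the lowest for 5 of the 7.

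Markers of the cells that express the oxidase moved with the groups. In bulk RNA, fewer cells of a type and less RNA per cell cannot be told apart. Calls over all tested genes were 9.2% higher and 4.71% lower in DM. All 6 early neutrophil markers fell, with a median of -3.04, among them Elane (-3.96, limma adjusted p 0.000118) and Prtn3 (-3.37, adjusted p 0.000118), which encode granule proteases. Their summed level, in units of 1000 normalized counts (2 to the power of the rlog value), was 47.6 to 88.7 in WT and 11.9 to 18.6 in DM. Of 10 late neutrophil markers 7 fell and none rose, with a median of -0.88 and sums of 316 to 503 in WT and 145 to 273 in DM; Camp, a granule peptide, was at -1.66 (adjusted p 0.00514). Mmp8, a granule collagenase of the same list named after its values were seen, had WT values of 14.36, 14.72 and 14.55 and DM values of 14.78, 14.98 and 15.37, which did not overlap, and was not called (0.50, adjusted p 0.0521). Mmp8 was called higher in 5 of 13 alternatives, among them leaving out WT replicate 2 (0.59, adjusted p 0.0347) or DM replicate 1 (0.63, adjusted p 0.0261). Of 14 monocyte and macrophage markers 12 were tested, of which 9 rose and 2 fell, with a median of 0.76 and sums of 368 to 587 in WT and 722 to 927 in DM. Cd68, a lysosomal protein of macrophages, rose by 0.94 (adjusted p 0.00777). The 2 that fell were Ly6c2 (-1.13, adjusted p 0.00361) and Ccr2 (-0.78, adjusted p 0.00975), both markers of inflammatory monocytes, the latter named after its values were seen. No marker of these lists was at 0 in all libraries, but C1qa and Ly86 were under the mean of 3. In both groups replicate 2 had the highest monocyte and macrophage sum (587 in WT, 927 in DM), and it also had the highest Cybb and Cyba values. The other replicates did not keep this order. In WT, replicate 3 had the lowest sum (368, against 424 in replicate 1). WT replicate 3 was nevertheless above WT replicate 1 for Cybb (14.52 against 14.31) and Cyba (13.80 against 13.75). In DM, replicate 3 had a higher sum than replicate 1 (768 against 722) and a lower Cybb (14.94 against 14.98). The part of the marker shifts in the changes of the oxidase genes was not tested.

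**Figure D3:**
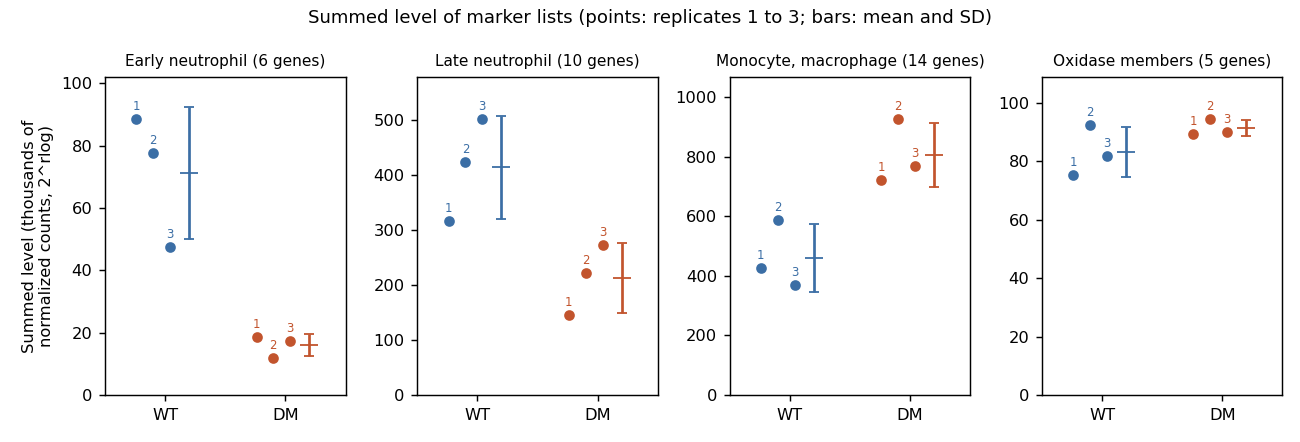
Summed levels (2 to the power of the rlog value, in units of 1000 normalized counts, axis from 0) of 3 marker lists and of the 5 oxidase members are plotted for each library, with points numbered by replicate and a bar for the mean and SD (n = 3). Both neutrophil lists are lower and the monocyte and macrophage list is higher in all 3 DM libraries, and the sums of the oxidase members overlap.

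Because an offset of a whole library cancels between its genes, the members were also compared pair by pair within each library. Cyba stood below Ncf1 in all 3 WT libraries, with differences of -0.2, -0.18 and -0.31 on the rlog scale, and above it in all 3 DM libraries, with differences of 0.74, 0.81 and 0.52. The gap between them thus moved by 0.92 on the log2 scale, a 1.89-fold change in the ratio of these transcripts. The sign of the gap is not corrected for transcript length. Per kb of the longest annotated transcript, Cyba was above Ncf1 in WT (14.28 and 12.56) and in DM (14.78 and 12.14). The gap of Cybb over Ncf1 went from 0.36, 0.67 and 0.41 in WT to 1.45, 1.3 and 1.19 in DM, a move of 0.83 (1.78-fold). Both gaps set a membrane subunit against the organizer, and neither overlapped between the groups. Between the membrane subunits themselves, Cybb minus Cyba was 0.56, 0.85 and 0.72 in WT and 0.71, 0.49 and 0.67 in DM, and these values overlapped. Ncf1 minus Ncf4 went from a mean of 1.55 to 1.16, a move of -0.39.

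Of the 10 pairs of members, 8 had gaps that did not overlap between the groups, against 39.5% of all pairs of tested genes. For Cyba with Ncf1 and Cybb with Ncf1 this follows from the values of the single genes, which separated in opposite directions. Each of the 8 pairs includes Cybb, Cyba or Ncf1, whose own groups did not overlap. The pairs share genes and are not independent, so the count of 8 is not separate evidence. The pairs that overlapped were Cybb with Cyba and Ncf4 with Rac2. An exact two-sided permutation test over the 20 assignments of the libraries gave p = 0.1 for each of the 8, the smallest that 3 against 3 allows, and an adjusted p of 0.125 over the 10 pairs. For Cybb with Cyba the exact permutation p was 0.4 and for Ncf4 with Rac2 it was 0.6. No pair therefore passes a threshold of 0.05, nor could it at this size. The gap of Cyba over Ncf1 moved by 0.96 after quantile normalization and by 0.86 to 1.00 with 1 library left out, and that of Cybb over Ncf1 by 0.86 and 0.76 to 0.93.

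**Figure D4:**
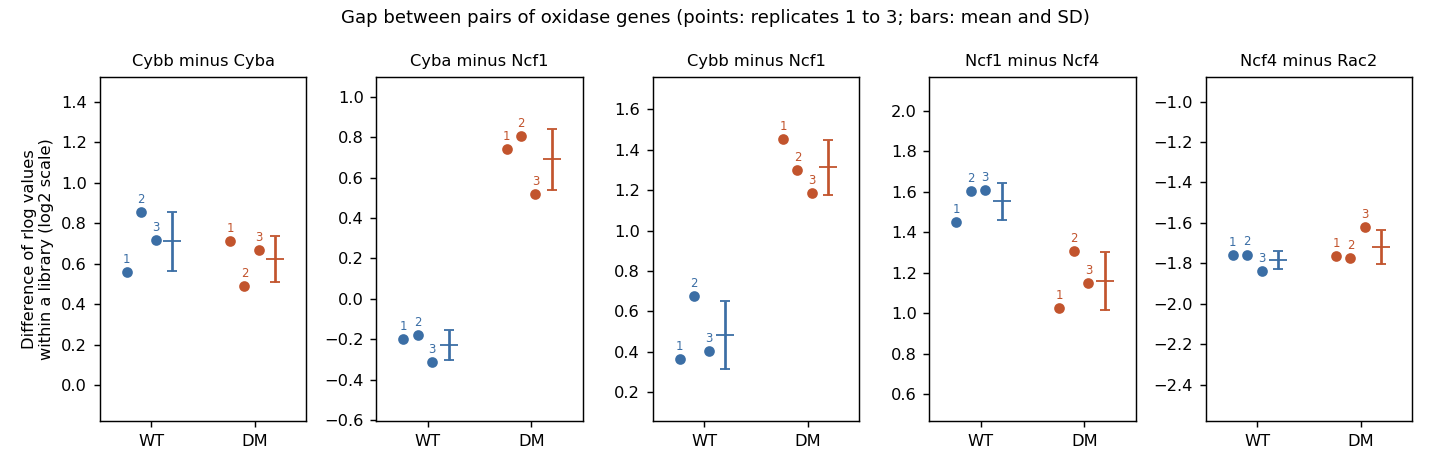
The difference of rlog values between the genes named above each panel is plotted for every library on the log2 scale, with points numbered by replicate and a bar for the mean and SD (n = 3); all panels have the same span. Cyba minus Ncf1, not corrected for transcript length, is below 0 in WT and above 0 in DM. Cybb minus Cyba and Ncf4 minus Rac2 overlap between the groups.

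The ratio of the Rac genes was chosen after its values had been seen and is given without a test. Rac2 minus Rac1 was 1.01, 1.02 and 1.16 in WT and 0.87, 0.75 and 0.84 in DM, a move of -0.25.

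For comparing levels between genes, rlog values were set against transcript length (log2 per kb of the longest annotated transcript). On this scale the order in WT was Cyba (14.28 ± 0.141), Rac2 (12.71 ± 0.0496), Ncf1 (12.56 ± 0.125), Cybb (12.32 ± 0.282) and Ncf4 (11.98 ± 0.0529), each with its SD over 3 libraries. Among neighbours in this order, the WT ranges of Rac2 and Ncf1 overlapped, as did those of Ncf1 and Cybb. In DM the order per kb was Cyba (14.78 ± 0.151), Cybb (12.73 ± 0.0439), Rac2 (12.62 ± 0.0383), Ncf1 (12.14 ± 0.122) and Ncf4 (11.96 ± 0.0919), and only the neighbours Ncf1 and Ncf4 overlapped. Cybb thus moved from the fourth to the second place. The order depends on the length used: with the median transcript length Rac2 came first, ahead of Cybb, Cyba, Ncf1 and Ncf4, in both groups. Ncf4 was the lowest of the 5 with either length.

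The genes with the most similar profiles over the 6 libraries were taken from 11972 tested genes with a mean of at least 6, by the root mean square difference of mean-centred rlog values (in parentheses). Nearest to Cybb were Car4 (0.0625), Dnajb14 (0.0716) and Syk (0.0732), the last a kinase that relays signals from phagocytic receptors to the oxidase. Nearest to Cyba were Clmn (0.0213), Hs3st3b1 (0.0219) and Shisa5 (0.0256). Those of Ncf1 were Sp140 (0.0172), a chromatin reader of immune cells, Agpat2 (0.0265) and Ankrd44 (0.0344). Ncf4 was nearest to Mbip (0.012), Fnbp4 (0.0161) and Gm42664 (0.0196), and Rac2 to Poll (0.0199), Bcl2l13 (0.0222) and Shfl (0.023). Ranked by Pearson correlation instead, Hs3st3b1, Sp140, Agpat2, Mbip and Fnbp4 remained among the 3 nearest of their member, and none did for Cybb or Rac2. With 6 libraries in 2 groups, these are descriptions.

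The list of other genes of the complex had 2 of 9 called, against 13.9% of all tested genes. Its median change was 0.15, and both called genes were higher. They were Hvcn1 (0.60, SE 0.126, limma adjusted p 0.0138), the proton channel that balances the charge moved by the oxidase, and Nckap1l (0.31, SE 0.0779, adjusted p 0.0267), a blood-cell subunit of the Rac-driven WAVE complex. Hvcn1 lost its call if WT replicate 1 (0.52, adjusted p 0.0573) or DM replicate 2 (0.52, adjusted p 0.0575) was left out. Nckap1l lost it on leaving out any library but WT replicate 2 (0.28 to 0.33, adjusted p 0.0574 to 0.119) and after quantile normalization (0.16, adjusted p 0.0708). The count of 2 became 0 if WT replicate 1 or DM replicate 2 was left out and 1 for WT replicate 3, DM replicate 1 or DM replicate 3. After quantile normalization 1 gene of the list was called higher and 1 lower. The NADPH oxidases of other tissues (such as Nox1, Nox3, Nox4 and the Duox genes) were low: 5 of 9 genes were tested and 0 were called by limma (1 had an unadjusted p under 0.05), or 1 if WT replicate 2 was left out. Their summed level was 0.109 to 0.125 in WT and 0.108 to 0.113 in DM, against 75.4 to 92.3 and 89.4 to 94.7 for the 5 members, in units of 1000 normalized counts.

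Of 15 genes of the Rac switch, its regulators and the Pak kinases activated by Rac, 4 were called, against 13.9% of all tested genes. The calls were 2 in each direction, and the median change was 0.07. Vav2, an exchange factor that activates Rac, rose by 0.56 (SE 0.0976, limma adjusted p 0.0071), and Arhgap25, a Rac inactivator, rose by 0.29 (SE 0.0746, adjusted p 0.0295). Pak1, a kinase activated by Rac, fell by 0.50 (SE 0.111, adjusted p 0.0168), and Arhgap15, another Rac inactivator, fell by 0.34 (SE 0.0647, adjusted p 0.00985). Vav2 and Arhgap15 were called in all 13 alternatives. Arhgap25 lost its call on leaving out any library but WT replicate 2 (0.24 to 0.31, adjusted p 0.0633 to 0.116) and with no filter on the mean (adjusted p 0.078). Pak1 lost it if DM replicate 3 was left out (-0.49, adjusted p 0.0609), where 2 of 15 were called.

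Upstream of the oxidase, the receptors that trigger it were mostly higher in DM. In the list of 14 triggering receptors, 10 rose and none fell, with all 14 means higher in DM and a median change of 0.45. The list also counts Fcgr2b, an inhibitory Fc receptor, which was not called (0.16, limma adjusted p 0.287). Among all tested genes 9.2% were called higher and 4.71% lower. A higher mean in DM was found for 51.6% of all tested genes and for 74.9% of those with a mean of 12 or more. All 14 means were also higher after quantile normalization and after centring. Clec7a, the receptor for fungal glucan, went from 12.99, 13.57 and 12.86 to 14.04, 14.19 and 13.89, so that it rose by 0.90 (SE 0.165, limma adjusted p 0.00838). Fpr2, a receptor for formylated peptides, rose by 0.59 (adjusted p 0.0094), Tlr2, a receptor for bacterial lipoproteins, by 0.58 (adjusted p 0.00723) and Cd14, a co-receptor for lipopolysaccharide, by 0.54 (adjusted p 0.0067). These 4 genes were called in every alternative run for them. The count of 10 was 4 if WT replicate 1 or DM replicate 2 was left out, 5 for DM replicate 3, and 6 after quantile normalization. The monocyte and macrophage markers given above moved the same way, and their part in these changes was not tested.

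Of 17 genes of activating signalling, 5 rose and none fell, with all 17 means higher in DM and a median of 0.22. Among all tested genes 9.2% were called higher and 4.71% lower. A higher mean in DM was found for 51.6% of them and for 74.9% of those with a mean of 12 or more. The number of higher means was 16 of 17 after centring and 12 of 17 after quantile normalization. Pik3r5, a regulatory subunit of phosphoinositide 3-kinase gamma, rose by 0.64 (SE 0.139, limma adjusted p 0.0159), Syk by 0.45 (SE 0.0988, adjusted p 0.0162), and Lyn, a Src family kinase, by 0.34 (adjusted p 0.0196). The count of 5 was 0 if WT replicate 1 or DM replicate 2 was left out, 2 for DM replicate 3, 3 for WT replicate 3, and 3 after quantile normalization. Without WT replicate 1, Pik3r5 was at 0.57 (adjusted p 0.0623), Syk was at 0.38 (adjusted p 0.0776), and Lyn was at 0.30 (adjusted p 0.0981). With DM replicate 2 left out, Pik3r5 was at 0.52 (adjusted p 0.061), Syk was at 0.41 (adjusted p 0.073), and Lyn was at 0.30 (adjusted p 0.0933). Lyn also lost its call if DM replicate 3 was left out (0.35, adjusted p 0.0595). The part of the higher monocyte and macrophage marker sums in these changes was not tested.

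Of 13 genes for enzymes that supply NADPH, 1 rose and 1 fell, with a median change of -0.012. The share called among all tested genes was 13.9%. Rpia, an enzyme of the pentose phosphate pathway, fell by 0.39 (SE 0.066, limma adjusted p 0.00689) and was called in all 13 alternatives. Me1, the cytosolic malic enzyme, rose by 0.33 (SE 0.0904, adjusted p 0.0384), a call lost in 8 of 13 alternatives, among them quantile normalization (0.26, adjusted p 0.0881) and leaving out any library but DM replicate 3 (0.25 to 0.37, adjusted p 0.0652 to 0.121). The count of 2 was 1 if WT replicate 1, WT replicate 3, DM replicate 1 or DM replicate 2 was left out, and after quantile normalization 0 genes were called higher and 3 lower.

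Of 21 genes that remove superoxide and peroxide or answer to them, 11 rose and 1 fell, with a median change of 0.28. Among all tested genes 9.2% were called higher and 4.71% lower. Prdx1, a peroxidase that reduces hydrogen peroxide, went from 13.44, 13.85 and 13.41 to 14.41, 14.62 and 14.22, so that it rose by 0.85 (SE 0.136, limma adjusted p 0.00553). Slc7a11, which imports cystine for glutathione synthesis, rose by 0.78 (adjusted p 0.00553), Hmox1, which degrades haem, by 0.69 (adjusted p 0.0141) and Sod2, the mitochondrial superoxide dismutase, by 0.60 (adjusted p 0.0042). The 1 gene that fell was Gsr, glutathione reductase (-0.28, adjusted p 0.0409), which is named because of its direction. Gsr was not called with any 1 library left out (-0.35 to -0.25, adjusted p 0.0504 to 0.15) or with no filter on the mean (adjusted p 0.0633). Hmox1 lost its call if WT replicate 1 (0.57, adjusted p 0.0519) or DM replicate 2 (0.58, adjusted p 0.0545) was left out. The count of 12 was 4 in either case, 6 if DM replicate 1 and 7 if WT replicate 3 was left out. After quantile normalization 7 genes of the list were called higher and 2 lower. The summed level of the monocyte and macrophage markers was also higher in DM, as given above, and its part in the changes of this list was not tested.

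Of the 3 haem peroxidases, which use hydrogen peroxide to make further oxidants, 2 fell, against 4.71% of all tested genes called lower. Mpo, the peroxidase of neutrophil granules, went from 15.30, 15.07 and 14.09 to 11.10, 9.57 and 11.10, a change of -4.23 (SE 0.409, limma adjusted p 0.000444). Epx, that of eosinophils, went from 13.64, 13.91 and 13.66 to 12.29, 12.08 and 12.45, a change of -1.46 (SE 0.109, adjusted p 0.000118). The third of the list, Lpo, was low, at a mean of 3.64 and 3.49, and was not called. Mpo and Epx were called in all 13 alternatives, and both also stand in the marker lists, for early neutrophils and for eosinophils.

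**Figure D5:**
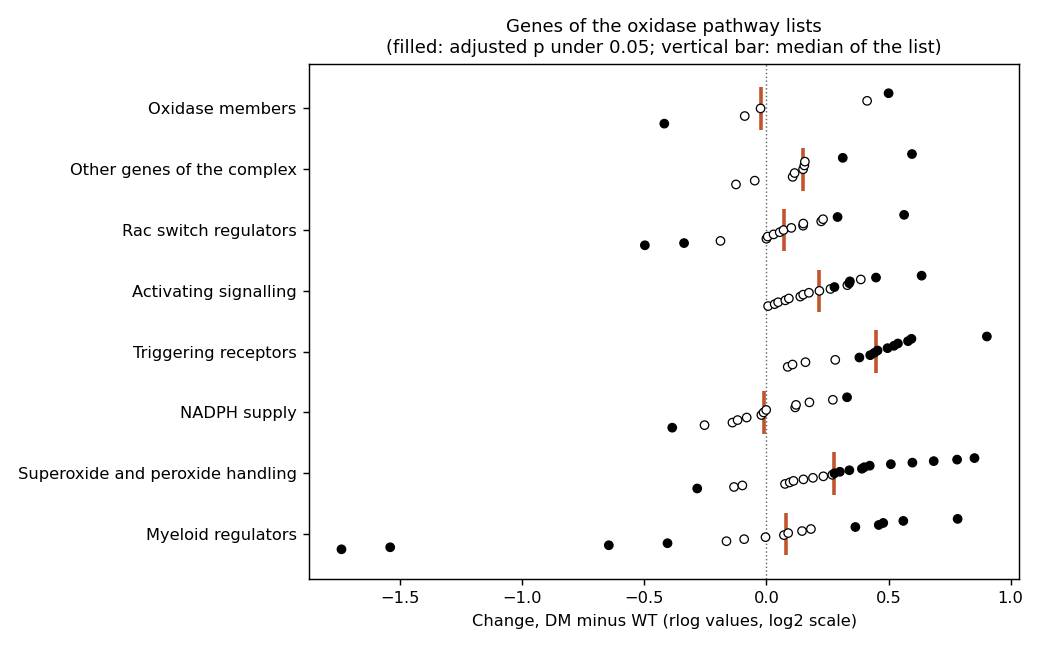
Each point is 1 tested gene, placed by its change, DM minus WT, in rlog values on the log2 scale, filled where the limma adjusted p was under 0.05; vertical bars mark the median of each list. With the values as deposited, the 14 genes of the triggering receptor list and the 17 signalling genes all lie above 0. After quantile normalization 12 of the 17 do. The oxidase members spread to both sides.

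Among 16 transcription factors of myeloid cells, 5 rose and 4 fell, with a median change of 0.08. The shares over all tested genes were 9.2% called higher and 4.71% called lower. Spi1 encodes PU.1, a known activator of Cybb and Ncf1. It stood at 12.81, 13.05 and 12.91 in WT against 12.93, 13.18 and 13.08 in DM and was not called (0.15, SE 0.0919, limma adjusted p 0.317). Irf8, a partner of PU.1 at composite sites, rose by 0.56 (SE 0.123, adjusted p 0.016); it and Spi1 were picked with their values known. Irf8 was not called if WT replicate 1, DM replicate 2 or DM replicate 3 was left out (0.50 to 0.54, adjusted p 0.0608 to 0.0632). Klf4, a factor of monocytes, rose by 0.78 (SE 0.156, adjusted p 0.0114). Cebpe, needed for late neutrophil maturation, fell (-1.74, SE 0.139, adjusted p 0.000157), as did Gfi1, a repressor needed for neutrophils (-1.54, SE 0.139, adjusted p 0.000306) and Myb, a factor of progenitors (-0.65, SE 0.133, adjusted p 0.0127). Myb lost its call if DM replicate 2 (-0.57, adjusted p 0.0529) or DM replicate 3 (-0.60, adjusted p 0.0526) was left out. The count of 9 was then 4 and 5, and it was also 5 if WT replicate 1 was left out. After quantile normalization 3 were called higher and 5 lower.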

How the data were processed

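Total RNA was measured in 6 libraries, 3 WT and 3 DM, grouped by the labels, which put all 6 in batch 1. The authors deposited rlog values, on the log2 scale, a scale taken from the table's name and its values (-1.97 to 21.88). The rlog transform shrinks values toward each gene's mean, so changes of low genes are understated. The submitters' processing notes name cutadapt 2.6, STAR 2.7.3, DESeq2 1.30.0 and mm10. The counting tool, the annotation and the use of strand are not given in the sources used here. Identical lines (142699) were merged into 55487 genes. DM was compared with WT by limma 3.58.1 in R 4.3.3 (lmFit, eBayes with a mean-variance trend, two-sided), for the 18766 genes whose mean was 3 or more, with Benjamini-Hochberg adjustment over all of them, a threshold of 0.05 and no covariates. The code was tested on simulated data. Depth is unknown and limits what precision can be stated.

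Named were the 5 members, Rac1 and Cybc1, up to 4 called genes with the largest change per list, and the 3 nearest profiles per member; Irf8, Spi1, Gsr, Mmp8 and Ccr2 fall outside this rule, and some items under it are not reported here. Members and lists were chosen with earlier results of these data known. Alternatives were other filters, no trend, quantile normalization, centring on the median, a replicate block and leaving out each library; for levels per kb, the median transcript and, chosen after seeing the data, the longest coding transcript, which gave the members the same levels. Deviations of same-numbered replicates from their group means correlated at 0.491, 0.116 and 0.0412 across genes, so replicates were treated as unpaired. Figures were drawn with matplotlib 3.10.9.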

Additional observations from a re-analysis of the deposited data

How the results depend on the processing

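In the 13 alternatives the members kept their direction except Ncf4, which was not called and ranged from -0.071 to 0.021 with 1 library left out (0.0064 without WT replicate 2, 0.021 without DM replicate 2). With 1 library left out, Cyba ranged from 0.41 to 0.58, Ncf1 from -0.49 to -0.35, Cybb from 0.29 to 0.56 and Rac2 from -0.12 to -0.071. Cybb, at 0.41, was called with a mean of at least 5, with protein-coding genes only and with the replicate block (adjusted p 0.0151), which makes 2 members higher in each. Members called ranged from 0 to 3 with 1 library left out, of which 0 to 2 were higher and 0 to 1 lower. Genes called ranged from 1119 to 3475, with 598 to 2323 higher and 521 to 1152 lower. List counts ranged from 0 to 3 for other genes of the complex and 0 to 1 for oxidases of other tissues. The ranges were 2 to 5 for genes of the Rac switch and 0 to 6 for activating signalling. They were 4 to 11 for triggering receptors and 1 to 2 for NADPH supply. Superoxide and peroxide handling ranged from 4 to 11 and myeloid regulators from 4 to 8. With no filter on the mean, 1132 genes were higher, and 3 genes of activating signalling, 1 of NADPH supply and 7 of superoxide and peroxide handling were called. After quantile normalization, 3 genes of activating signalling and 6 receptors were called, and Rac1 (-0.0021) turned sign. Leaving out a library also lowers the number of libraries, and the cause of these shifts was not tested.

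The labels share replicate numbers but do not say what they pair, and WT replicate 3 did not correlate best with its own number. With the replicate block, 3742 genes were called in place of 2611, 2632 of them higher. Called with it were 7 genes of the Rac switch, 9 of activating signalling and 4 of NADPH supply.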

Other observations

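Cell types other than neutrophils and macrophages were also read from marker lists, whose summed levels are in units of 1000 normalized counts. For comparison, 13.9% of all tested genes were called by limma, 9.2% as higher and 4.71% as lower in DM. The mast cell and basophil list held 3 of 11 called genes: the mast cell proteases Mcpt1 (1.32, limma adjusted p 0.0491) and Mcpt2 (0.99, adjusted p 0.0163) rose, and Hdc, which makes histamine, fell (-0.62, adjusted p 0.0457). Mcpt1 lost its call in 9 of 13 alternatives, at 0.81, adjusted p 0.0793 if DM replicate 2 was left out, and Hdc in 7 of 13. The sums of the list were 478 to 608 in WT and 524 to 685 in DM. Its count was 1 if WT replicate 2, WT replicate 3 or DM replicate 2 was left out. The eosinophil list held 3 of 9 called, all lower: Epx, Prg3 (-1.29, adjusted p 0.000118) and Prg2 (-1.16, adjusted p 0.00381), with sums of 38.8 to 42.2 in WT and 18.5 to 24.4 in DM. The erythroid list had 0 of 9 tested genes called by limma (0 had an unadjusted p under 0.05), all with a lower mean in DM, or 1 called if WT replicate 2 was left out. The megakaryocyte list had 2 of 8 called, Gp1ba (0.55, adjusted p 0.017) and Vwf (0.54, adjusted p 0.00667), both higher. Gp1ba lost its call after quantile normalization (0.45, adjusted p 0.0611) and if DM replicate 2 was left out (0.53, adjusted p 0.0625). The lymphoid list had 3 of 7 tested genes called, with Nkg7 (-1.89, adjusted p 0.000155) and Cd79b (-0.27, adjusted p 0.0166) lower and Il7r (0.79, adjusted p 0.0094) higher. Cd79b was not called if DM replicate 1 (-0.27, adjusted p 0.0515) or DM replicate 2 (-0.26, adjusted p 0.0637) was left out. The stem and progenitor list had 3 of 10 called, with Procr (0.73, adjusted p 0.00705) and Mecom (0.52, adjusted p 0.0189) higher and Flt3 (-0.30, adjusted p 0.0494) lower, or 1 if DM replicate 2 was left out. The call of Flt3 was lost in 9 of the 12 alternatives that tested it, among them quantile normalization (-0.23, adjusted p 0.0944) and leaving out any library but WT replicate 2 (-0.30 to -0.23, adjusted p 0.101 to 0.163).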
